A study of Homo sapiens with 14 samples.

Results

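The genes described here are those of the IL6, JAK and STAT3 signalling pathway together with TRIM8: STAT3, TRIM8, IL6, IL6R, IL6ST, JAK1, JAK2, SOCS3, PIAS3 and OSMR. They were chosen by name, with earlier results of these data known. A probe was taken as a member when the RefSeq accession in its annotation mapped to one of these genes. The 10 genes were 10 of the 20992 genes named on the array, and were measured by 19 of the 29033 probes that carried a gene name. The array has 50599 non-control probes, and those without a name could include further probes of these genes. IL6ST had 7 probes, STAT3, IL6R and OSMR had 2 each, and the other 6 genes had 1 each.

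The study asked which RNAs change when the long non-coding RNA LINC00152 is depleted in A172 and U87, which are human glioblastoma cell lines. Cells were electroporated with 20 pmol/ml of either a control siRNA without an RNA target or an siRNA against exon 1 of LINC00152, called siLINC00152, and by the sample labels were cultured for 40 h before RNA isolation, a time that the text of the study gives differently. Each of the 14 one-colour arrays measured 1 sample, with 3 control and 3 siLINC00152 arrays for A172 and 4 of each for U87. The sample labels describe 1 siRNA against LINC00152, so its effects through LINC00152 and through other RNAs cannot be told apart.

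As background, interleukin-6 binds its receptor IL6R, and the pair engages the shared signalling chain IL6ST, whose bound kinases JAK1 and JAK2 phosphorylate STAT3. Phosphorylated STAT3 dimerises, enters the nucleus and switches on genes that include SOCS3, which in turn dampens the receptor and its kinases. PIAS3 binds STAT3 and blocks its access to DNA, TRIM8 is a ubiquitin ligase known to counter SOCS1 and PIAS3, and STAT3 activity is known for its link to mesenchymal and stem-like states in glioblastoma. The arrays measured RNA, so phosphorylation and protein levels were not part of the data.

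The study lists 2 siRNAs against exon 1 of LINC00152, and the sample labels do not say which of them was used. The first is shown, from 5′ to 3′, because the comparisons turn on the siRNA and the study names it for knockdown in both lines, and its use on the arrays is inferred from that.
siLINC00152 #1: tgcctgtcttcagatcttcacagca

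The value used throughout is the log2 processed signal of a probe minus the log2 75th percentile of the non-control spots of its array, called the log2 level. The 6 A172 arrays lay on 3 slides, and the control and siLINC00152 arrays with the same replicate number shared a slide. Their 75th percentiles lay between 131 and 284 intensity units, with a median of 189, and 57.3% to 69% of their spots were well above background. The 8 U87 arrays lay on 1 slide with 75th percentiles between 33 and 69 intensity units and a median of 57.9, and 35.7% to 48.3% of their spots were well above background. U87 control replicate 3 stood apart as the dimmest array, with a 75th percentile of 33 intensity units and 35.7% of its spots well above background, and U87 siLINC00152 replicate 3 was next with 42.6 intensity units and 40.4%. Levels of A172 and U87 cannot be told apart from the slides they lay on, and the number of arrays limits the precision of every value.

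A probe was called changed when its limma false discovery rate was below 0.2 and its absolute log2 fold change above 0.5, the thresholds the study used. The same model was also fitted with a replicate block, in which each control array is compared with the siLINC00152 array of the same number. The words rose and fell are kept for probes that passed these thresholds, with the block or without it as stated.

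The knockdown target was depleted in both lines. On the LINC00152 probe A_24_P273143 the A172 control arrays read 2.63, 2.44 and 2.48 and the A172 siLINC00152 arrays 0.23, -0.42 and -0.10. The U87 control arrays read 1.94, 1.83, 1.71 and 1.82 and the U87 siLINC00152 arrays -1.22, -0.88, -0.74 and -0.79. In each line every siLINC00152 array was below every control array. Knockdown gave a log2 fold change of -2.61 (SE 0.24, limma adjusted p = 0.000731) in A172, where 16.3% of the control level remained, and -2.73 (SE 0.21, limma adjusted p = 4.96e-05) in U87, where 15.1% remained.

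Markers of the glioblastoma lines were checked as well. VIM, NES and CD44, which mark mesenchymal and progenitor-like glioma cells, were well above background on every array with each of their probes. The astrocyte marker S100B was well above background on no array, and GFAP on 1 A172 control array with 1 of its 2 probes and on no U87 array. SOX2 and OLIG2 were well above background on all 6 A172 arrays, whereas in U87 SOX2 was on no array and OLIG2 was on 3 of 8. The mean OLIG2 log2 level was no lower in U87, at -1.72 in the U87 controls and -2.05 in the A172 controls. The U87 arrays were dimmer, so the OLIG2 detection counts do not compare its level between the lines. Among markers of other cell types, CD14 and CDH5 were well above background on every array, as were 2 of 5 PTPRC probes in A172 and 1 of 5 in U87, and AIF1 had no named probe. PECAM1 was well above background on every A172 array with 1 of its 3 probes and on no U87 array, the epithelial marker CDH1 was on no array, and EPCAM was on 1 A172 control array. Of the marker probes, CD44 A_33_P3294509 alone passed the thresholds in a line: its log2 fold change in A172 was -1.13 (SE 0.12 with the replicate block, limma adjusted p = 0.00807 with the block and 1 without it). On the other CD44 probe, A_21_P0000152, the A172 mean log2 level was -0.33 in the controls and -0.58 after knockdown. In bulk RNA, fewer cells of a type and less RNA per cell cannot be told apart.

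Of the 19 member probes, 14 were bright enough to be tested in A172 and 15 in U87. In A172, 1 of the 14 was called, the TRIM8 probe, which fell, and 0.184% of all 28337 tested probes were called in that line. In U87, limma called 0 of the 15, with 1 at an unadjusted p under 0.05, beside 0.0502% of all 21919 tested probes called and 2.31% at that p. For the difference between the lines, limma called 0 of 14 member probes, with 3 at an unadjusted p under 0.05, beside 0.00945% of 21163 called and 0.789% at that p. That 3 was 1 without A172 siLINC00152 replicate 1, and the 1 in U87 was 0 without U87 control replicate 1 or 2 or U87 siLINC00152 replicate 3, and 2 without U87 control replicate 4 or U87 siLINC00152 replicate 2. Once the replicate block was added, the TRIM8 probe was the 1 member probe called in A172, in U87 and for the difference, beside 3.26%, 4.19% and 0.421% of all tested probes. With the block 5 of 14 member probes in A172, 6 of 15 in U87 and 9 of 14 for the difference were at an unadjusted p under 0.05, beside 10.7%, 16.9% and 8.31% of all tested probes. These counts moved with single pairs: in A172 to 1 without A172 replicate 1 and 3 without A172 replicate 3, and in U87 to 2 without U87 replicate 3 and 3 without U87 replicate 4. For the difference the count was 4 without A172 replicate 2 and 5 without A172 replicate 1 or without U87 replicate 2.

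Most fold changes of the members lay below 0 in A172 and above 0 in U87, and in both lines the counts depended on single arrays. In A172, the log2 fold change lay below 0 for 13 of the 14 tested member probes, with a median of -0.27, beside 45.7% of all tested probes and a median of 0.021. In U87, 4 of 15 were below 0, with a median of 0.21, beside 52.6% and a median of -0.017. The probes are not independent of each other, since 6 of those tested in each line belong to IL6ST, and these counts carry no test. The counts below 0 were the same under every scaling tried. Without U87 control replicate 3, 9 of the 15 U87 probes were below 0 and their median was -0.0013, and without U87 siLINC00152 replicate 4 there were 7 and a median of 0.039. In A172 the count was 8 of 14 without A172 control replicate 3 or without A172 siLINC00152 replicate 2, with medians of -0.12 and -0.19. Other arrays moved the medians away from 0: in A172 to -0.52 without A172 siLINC00152 replicate 3 and -0.44 without A172 control replicate 2, and in U87 to 0.47 without U87 control replicate 4 and 0.36 without U87 siLINC00152 replicate 2.

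**Figure D1:**
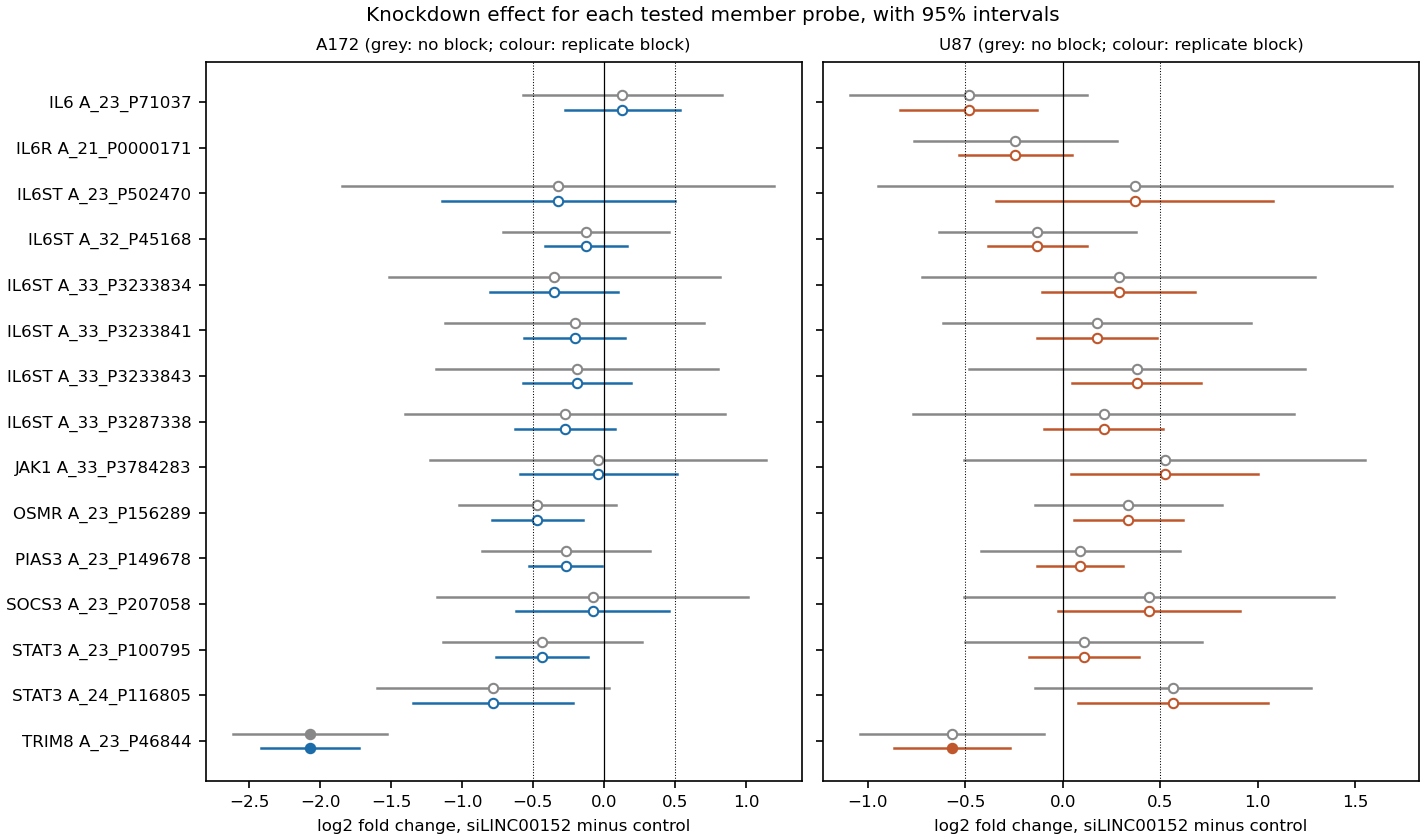
Log2 fold change, siLINC00152 minus control, for each tested member probe in A172 (left) and U87 (right), with 95% intervals, where grey is the model without a block, colour the model with the replicate block, filled points passed the thresholds and dotted lines mark a log2 fold change of 0.5 in size. TRIM8 in A172 lies at -2.07, apart from every other member probe.

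TRIM8, the ubiquitin ligase, had the member probe with the largest fold change in A172. On A_23_P46844 the A172 control arrays read 2.58, 2.60 and 2.50 and the siLINC00152 arrays 0.44, 0.50 and 0.53. The arrays within each group were close together and the groups lay far apart, with pair differences of -2.13, -2.11 and -1.97. TRIM8 fell by 2.07 (SE 0.25, 95% interval -2.61 to -1.53, limma adjusted p = 0.00538), leaving 23.8% of the control level. The adjusted p with the replicate block was 0.00312.

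In U87 the TRIM8 probe read 2.88, 2.96, 2.09 and 2.78 in the control arrays and 2.05, 2.25, 1.93 and 2.22 in the siLINC00152 arrays. Each of the 4 pairs was lower after knockdown, but control replicate 3, the dimmest array, was lower than the other controls and lay within the range of the siLINC00152 arrays, so the groups overlapped. Its fold change was -0.57 on the log2 scale (SE 0.22, limma adjusted p = 1, unadjusted 0.0212), and 67.5% of the control level remained. Without U87 control replicate 3 it was -0.76 (limma adjusted p = 0.445). TRIM8 passed the thresholds in U87 with the replicate block (SE 0.13, limma adjusted p = 0.108), and with 1 pair at a time left out it failed them in 4 of 7 fits, with adjusted p between 0.0564 and 0.292 over the 7. With normexp and quantile normalization, fitted without a block, the log2 fold change was -0.47, short of 0.5.

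The TRIM8 fold change was larger in size in A172 than in U87 by a log2 difference of -1.50 (SE 0.33, 95% interval -2.22 to -0.79). Its unadjusted p was 0.000492, and its limma adjusted p over 21163 probes was 1. With the replicate block the adjusted p was 0.0969, which passed the threshold, and with 1 pair at a time left out it missed the threshold in 6 of 7 fits, at values from 0.238 to 0.397. By mean log2 level the groups ran from U87 control (2.68, SD 0.40), A172 control (2.56, SD 0.05) and U87 siLINC00152 (2.11, SD 0.15) to A172 siLINC00152 (0.49, SD 0.04). The order of the first 2 is within the spread of the U87 control arrays. TRIM8 is among the genes that the study listed from these same arrays, so its fall is not evidence from separate samples.

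**Figure D2:**
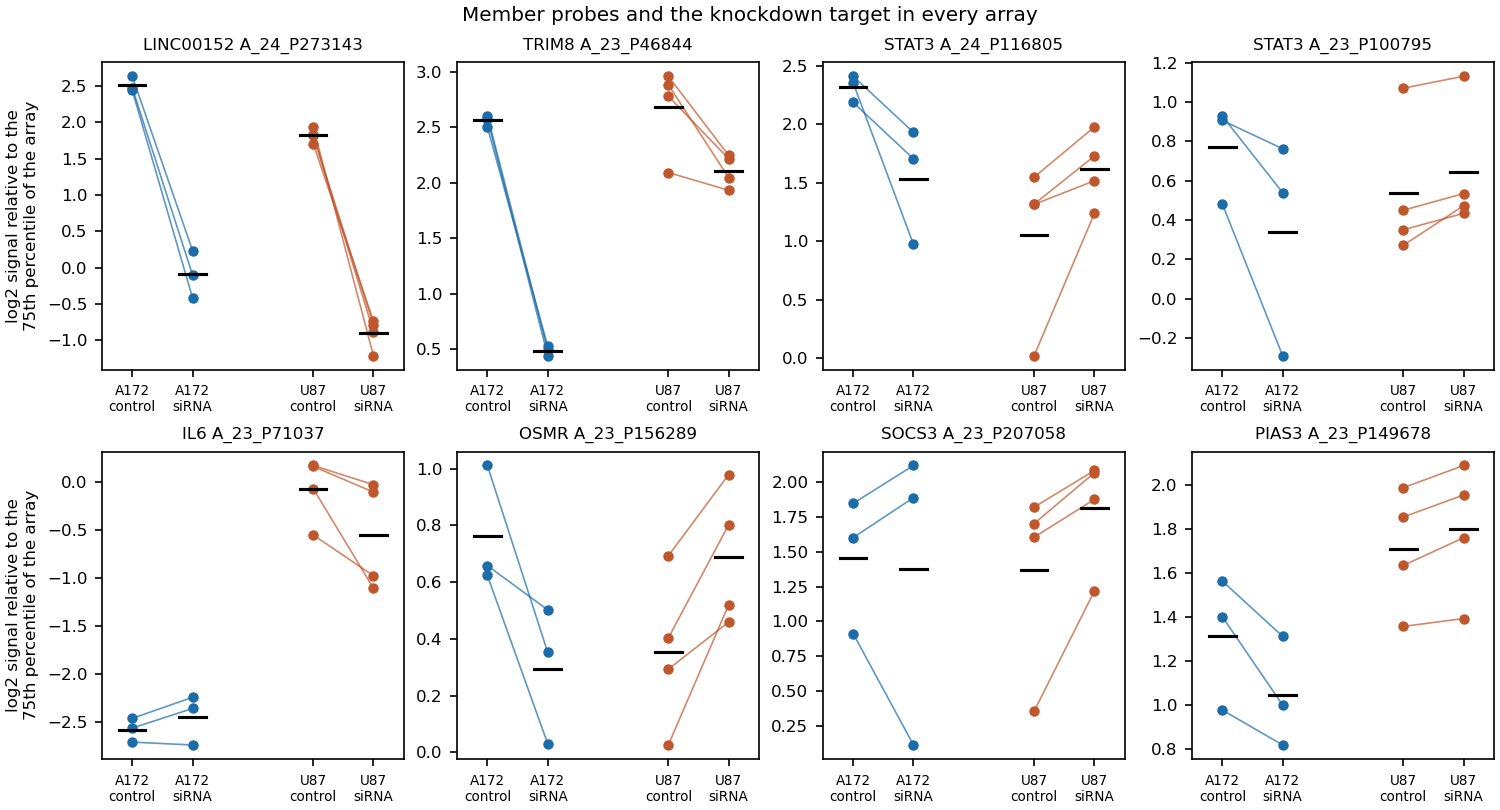
Log2 level of 7 member probes and of the knockdown target in every array, with lines joining the control and siLINC00152 arrays of the same replicate number and bars at group means. The groups are far apart for LINC00152 in both lines and for TRIM8 in A172, whereas the lines of STAT3 and OSMR slope down in A172 and up in U87.

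IL6, the ligand, read -2.46, -2.56 and -2.71 in the A172 control arrays and -2.24, -2.36 and -2.74 in the A172 siLINC00152 arrays. The groups overlapped, 2 of 3 pairs were higher, and the log2 fold change was 0.13 (SE 0.33, limma adjusted p = 1). With 1 array left out that A172 value ran from 0.028 to 0.28. In U87 IL6 read 0.16, 0.17, -0.07 and -0.55 in the control arrays and -0.11, -0.03, -1.11 and -0.98 in the siLINC00152 arrays. All 4 pairs were lower, by differences between -1.04 and -0.20, although the groups overlapped, since the controls themselves ran from -0.55 to 0.17. This gave a log2 fold change of -0.48 (SE 0.28, limma adjusted p = 1), or -0.30 without U87 siLINC00152 replicate 3 and -0.66 without U87 siLINC00152 replicate 2. Its adjusted p with the replicate block was 0.195, under the false discovery threshold, while the fold change stayed short of 0.5.

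IL6R, the receptor that binds IL6, was dim. Probe A_33_P3288844 was well above background on no array, with levels from -6.46 to -5.18 in the A172 controls, -5.90 to -5.24 in the A172 siLINC00152 arrays, -3.34 to -2.70 in the U87 controls and -4.10 to -3.55 in the U87 siLINC00152 arrays. Probe A_21_P0000171 was well above background on 1 of 3 A172 control arrays and 0 of 3 siLINC00152 arrays, with levels from -4.31 to -3.54 and from -4.87 to -4.08, so no fold change is given for A172. In U87 it was well above background on 3 of 4 arrays of each group, with levels from -1.62 to -1.23 in the controls and from -1.73 to -1.30 after knockdown. Its log2 fold change there was -0.24 (SE 0.24, limma adjusted p = 1), with 4 of 4 pairs lower. Over the alternatives that kept all arrays, that U87 value ran from -0.24 to -0.064.

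IL6ST, the signalling chain shared by the family, had 6 probes tested in both lines, while A_32_P223777 was well above background on no array, with group means from -5.74 to -4.03. In A172 the log2 fold changes were -0.35 for A_33_P3233834, -0.32 for A_23_P502470, -0.27 for A_33_P3287338, -0.21 for A_33_P3233841, -0.19 for A_33_P3233843 and -0.13 for A_32_P45168. In U87, in the same order, they were 0.29, 0.37, 0.21, 0.17, 0.38 and -0.13. Every one of these had a limma adjusted p of 1, and in A172 all 3 pairs were lower on 5 of the 6 probes. Standard errors ran from 0.24 to 0.71 without a block and from 0.11 to 0.35 with it. With the replicate block the lowest adjusted p among them was 0.655 in A172 and 0.247 in U87. On A_33_P3233834, as an example, the A172 control arrays read 0.65, -0.03 and 1.00 and the siLINC00152 arrays 0.61, -0.70 and 0.66. The arrays of a pair were alike, with replicate 2 low in both A172 groups. In U87 the same probe read 0.33, 0.16, -0.43 and 1.67 in the control arrays and 0.29, 0.46, 0.40 and 1.73 in the siLINC00152 arrays, with replicate 4 high in both groups. Without U87 control replicate 3, 5 of the 6 U87 fold changes lay between -0.26 and 0.01 and that of A_33_P3233843 was 0.17. In A172 each of the 6 fold changes crossed 0 in at least 1 fit without 1 array, that of A_23_P502470 running from -0.70 to 0.22.

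The IL6ST probes split by how they varied over the 14 arrays. After the mean of each line was subtracted, 5 of the 6 correlated with each other with Pearson r from 0.882 to 0.971. The remaining probe, A_32_P45168, had r from -0.633 to -0.401 with those 5. These correlations are descriptions over arrays that share slides and pairs. The probe A_32_P45168 was highest in U87 on control replicate 3 (4.92), the array on which the other 5 were at their lowest in that line.

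**Figure D3:**
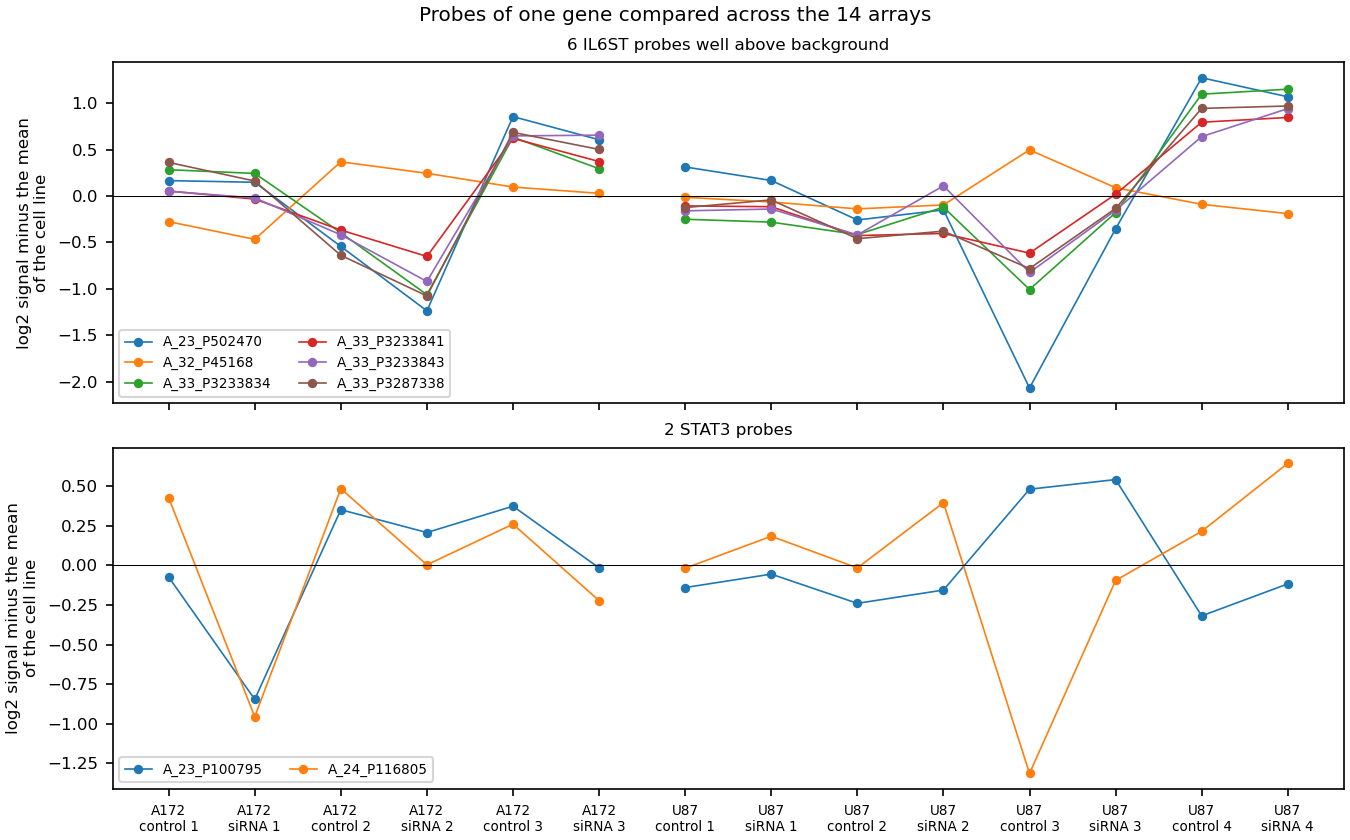
Log2 level minus the mean of the cell line for 6 IL6ST probes (top) and 2 STAT3 probes (bottom) on each of the 14 arrays, ordered by line and replicate number. In the top panel 5 lines run together and A_32_P45168 runs against them; in the bottom panel the STAT3 probes part on U87 control replicate 3.

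OSMR pairs with IL6ST to receive oncostatin M. Its probe A_23_P156289 read 0.62, 0.66 and 1.01 in the A172 control arrays and 0.03, 0.50 and 0.35 in the A172 siLINC00152 arrays. The A172 groups did not overlap and 3 of 3 pairs were lower. The log2 fold change was -0.47 (SE 0.26, limma adjusted p = 1, and 0.229 with the replicate block). In U87 OSMR read 0.29, 0.03, 0.40 and 0.69 in the control arrays and 0.46, 0.52, 0.80 and 0.98 in the siLINC00152 arrays. Here 4 of 4 pairs were higher and the groups overlapped. The log2 fold change was 0.34 (SE 0.22, limma adjusted p = 1, and 0.231 with the block), and the difference between the lines of -0.81 (SE 0.34) had an unadjusted p of 0.0338 and a limma adjusted p of 1, or 0.298 with the block. The other OSMR probe, A_21_P0000073, was well above background on 2 of 3 arrays of each A172 group and on no U87 array, and was not tested. Its levels were -2.44, -4.05 and -2.75 in the A172 controls and -2.83, -4.05 and -3.0 after knockdown.

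Of the kinases, JAK1 was tested in both lines and JAK2 in neither. JAK1 A_33_P3784283 read -1.04, -0.96 and -1.39 in the A172 control arrays and -1.07, -1.06 and -1.39 in the siLINC00152 arrays. The arrays of each pair were close, with differences between -0.097 and 0.0036. The log2 fold change was -0.041 (SE 0.55, limma adjusted p = 1, and SE 0.24 with the block). Both SEs draw on the spread in both lines, and the SD of the controls was 0.23 in A172 and 1.07 in U87. With 1 array left out that A172 value ran from -0.17 to 0.066 and crossed 0 in 3 of 14 fits. In U87 JAK1 read -0.32, -0.53, -2.46 and -0.20 in the control arrays and -0.45, -0.36, -1.33 and 0.73 in the siLINC00152 arrays. The low control value, on replicate 3, was not well above background. The U87 log2 fold change of 0.52 (SE 0.48, limma adjusted p = 1, and 0.263 with the block) became -0.0069 without that array. The highest U87 value with 1 array left out was 0.85. JAK2 A_33_P3878772 was well above background on 2 of 3 arrays of each A172 group and 1 of 4 of each U87 group, and was not tested in either line. It read -1.43, -4.23 and -2.16 in the A172 controls and -1.11, -3.58 and -2.26 after knockdown, and -1.90, -2.59, -3.34 and -1.06 in the U87 controls and -2.39, -1.97, -3.04 and -0.64 after knockdown. Arrays with the same number were alike in both lines, replicate 2 being low in A172 and replicate 3 in U87.

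STAT3, the transcription factor of the pathway, was read by probes that did not behave alike. On A_24_P116805, the brighter probe, the A172 control arrays read 2.36, 2.41 and 2.19 and the siLINC00152 arrays 0.97, 1.93 and 1.71. Every siLINC00152 array was below every control array, with replicate 1 furthest down, and 58.1% of the control level remained. A log2 fold change of -0.78 resulted (SE 0.38, 95% interval -1.60 to 0.03), with an unadjusted p of 0.0589 and a limma adjusted p of 1. With the replicate block the adjusted p was 0.247, above the threshold, and it ran from 0.12 without U87 replicate 3 to 0.802 without A172 replicate 1. The log2 fold change was -0.50 without A172 siLINC00152 replicate 1 and -0.98 without A172 siLINC00152 replicate 2.

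In U87 the same STAT3 probe read 1.32, 1.32, 0.02 and 1.55 in the control arrays and 1.52, 1.73, 1.24 and 1.98 in the siLINC00152 arrays. All 4 pairs were higher after knockdown, the groups overlapped, and control replicate 3 was far below the other controls. The log2 fold change of 0.57 (SE 0.33, limma adjusted p = 1, and 0.242 with the replicate block) was 0.22 without that array. The difference between the lines was -1.35 (SE 0.50, 95% interval -2.43 to -0.27), with an unadjusted p of 0.0179 and a limma adjusted p of 1, or 0.312 with the block. It was -1.01 without U87 control replicate 3.

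The other STAT3 probe, A_23_P100795, is spotted 10 times on the array. It read 0.48, 0.91 and 0.93 in the A172 control arrays and -0.29, 0.76 and 0.54 in the siLINC00152 arrays, so the groups overlapped while 3 of 3 pairs were lower. On average A_23_P100795 was at a log2 fold change of -0.44 (SE 0.33, limma adjusted p = 1, and 0.268 with the block), or -0.12 without A172 siLINC00152 replicate 1 and -0.65 without A172 siLINC00152 replicate 2. In U87 it was 0.11 (SE 0.28, limma adjusted p = 1, and 0.652 with the block), with 4 of 4 pairs higher. With 1 array left out the U87 value ran from -0.055 to 0.29. Over the 14 arrays, the means of the lines subtracted, the STAT3 probes had a Pearson r of 0.0602 with each other. They shared the direction of each pair and the low value of A172 siLINC00152 replicate 1, and parted on U87 replicate 3, where A_23_P100795 read 1.07 and 1.13, its highest values, and A_24_P116805 was at its lowest of each U87 group.

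Among the inhibitors, SOCS3 is the feedback gene that STAT3 is known to induce. Its probe A_23_P207058 read 0.91, 1.60 and 1.85 in the A172 control arrays and 0.11, 1.89 and 2.12 in the siLINC00152 arrays. Replicate 1 was the lowest of both groups and moved down, whereas the other 2 pairs moved up, and the log2 fold change was -0.081 (SE 0.51, limma adjusted p = 1). Its sign depended on single arrays, at 0.55 without A172 siLINC00152 replicate 1 and -0.45 without A172 siLINC00152 replicate 3. In U87 it read 1.82, 1.70, 0.35 and 1.60 in the control arrays and 2.08, 2.07, 1.22 and 1.88 in the siLINC00152 arrays. All 4 pairs were higher and the groups overlapped, with replicate 3 low in both. The U87 log2 fold change of 0.44 (SE 0.44, limma adjusted p = 1, and 0.317 with the block) was 0.10 without U87 control replicate 3.

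PIAS3, which keeps STAT3 from DNA, read 1.40, 1.56 and 0.98 in the A172 control arrays and 1.00, 1.31 and 0.82 in the siLINC00152 arrays on probe A_23_P149678. The groups overlapped and 3 of 3 pairs were lower, with a log2 fold change of -0.27 (SE 0.28, limma adjusted p = 1, and 0.423 with the block). In U87 its levels ran from 1.36 to 1.99 in the controls and from 1.39 to 2.09 after knockdown. Each of the 4 pairs was higher by between 0.036 and 0.13, and the log2 fold change was 0.091 (SE 0.24, limma adjusted p = 1). The A172 value was -0.15 without A172 control replicate 2 and -0.44 without A172 control replicate 3, and the U87 value was -0.026 without U87 control replicate 3 and 0.23 without U87 siLINC00152 replicate 3.

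To place the members among the rest of the pathway, 77 genes in 8 lists were followed: ligands, receptors, sheddases, kinases and adaptors, STAT factors, inhibitors, TRIM8 with its partners, and known STAT3 targets. Of their 103 probes, 79 were tested in A172 and 68 in U87. Without a block, limma called 1 of 79 in A172, the TRIM8 probe, with 8 at an unadjusted p under 0.05, and 0 of 68 in U87, with 2 at that p. Over all tested probes 0.184% and 0.0502% were called, and 2.28% and 2.31% were at that p. Adding the replicate block, 10 of 79 passed in A172, 2 rising and 8 falling, or 12.7% beside 3.26% of all tested probes. The 8 include MMP2, which was well above background on 0 of 3 siLINC00152 arrays. In U87 3 of 68 passed, 2 rising and 1 falling, or 4.41% beside 4.19%. At an unadjusted p under 0.05 the block gave 20 of 79 in A172 and 19 of 68 in U87, beside 10.7% and 16.9% of all tested probes. The median log2 fold change over the lists was -0.067 in A172 and 0.086 in U87, beside 0.021 and -0.017 over all tested probes. With normexp and quantile normalization, fitted without a block, the log2 fold changes of the probes that passed with the block were smaller in size, and those above 0.5 in size were TRIM8, ADAM17 and SAA1 in A172 and none in U87. The lists were described and not tested as sets. They were chosen with earlier results of these data known. TRIM8 and ADAM17 were already among the genes that the study listed from these arrays, and IL4R counts on 2 probes. The shares beside all tested probes are therefore not an independent comparison.

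**Figure D4:**
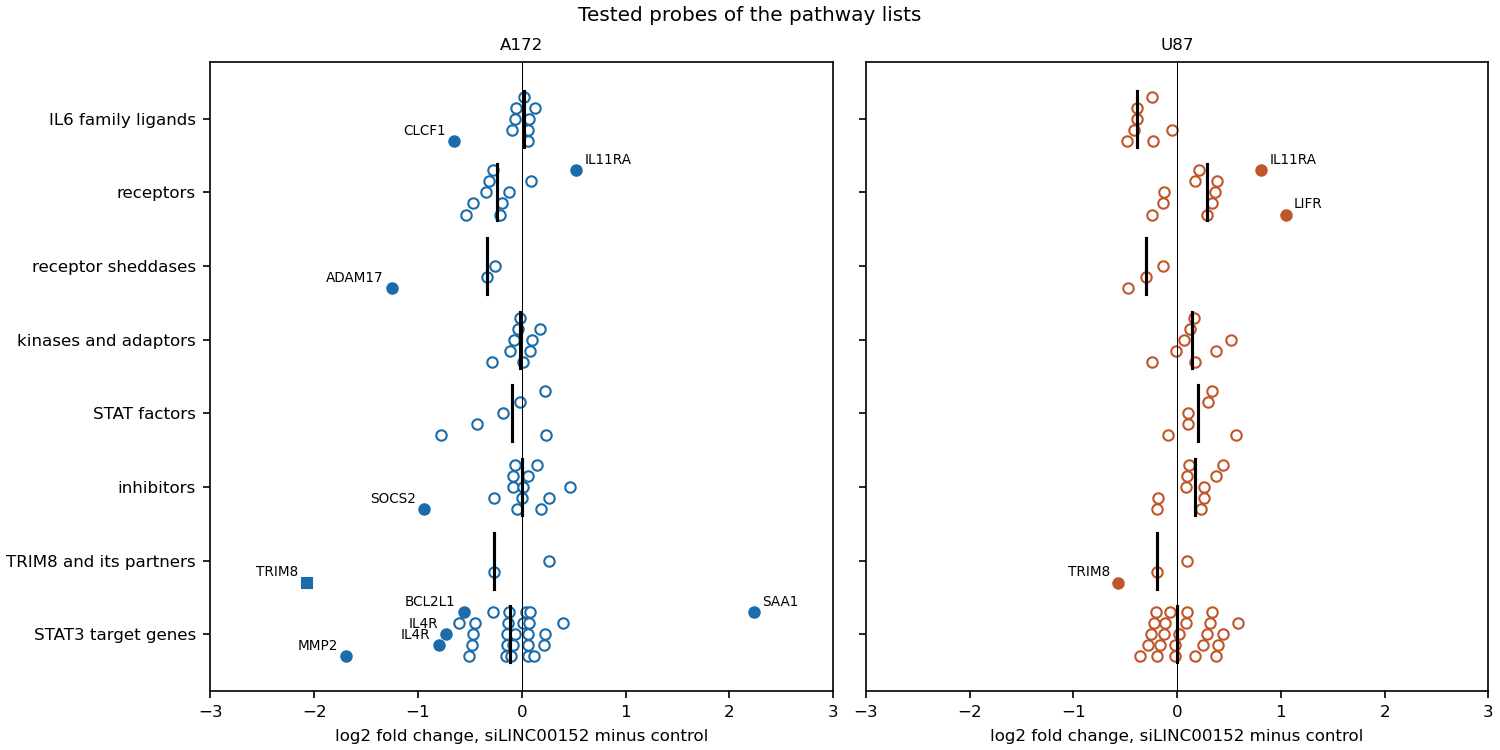
Log2 fold change, siLINC00152 minus control, of each tested probe of the 8 pathway lists in A172 (left) and U87 (right), with black bars at list medians. Filled points passed the thresholds with the replicate block, and the square, TRIM8 in A172, also without it; the labelled points other than TRIM8 passed with the block alone.

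Of the ligand list, 9 probes were tested in A172 and 7 in U87. CLCF1, a cytokine of the family that signals through LIFR and IL6ST, fell in A172 with the block by 0.66 (SE 0.15 with the block, limma adjusted p = 0.111 with it and 1 without). Its A_23_P138760 levels were -1.16, -1.63 and -1.21 in the A172 control arrays and -1.92, -2.22 and -1.82 in the siLINC00152 arrays, so the groups did not overlap, and without 1 pair at a time CLCF1 failed the thresholds in 3 of 7 fits. Its log2 fold change with normexp and quantile normalization was -0.21. All 7 ligand probes tested in U87, from 6 genes, had a log2 fold change below 0, with a median of -0.38, beside 52.6% of all tested U87 probes. Limma called 0 of the 7 with or without the block, beside 0.0502% of all tested U87 probes without it and 4.19% with it. At an unadjusted p under 0.05 were 0 without the block and 4 with it, beside 2.31% and 16.9%.

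Of the receptor list, 10 probes were tested in A172 and 11 in U87. IL11RA, the interleukin-11 receptor, was the list probe that rose in both lines with the block. On A_23_P71867 it read -0.75, -0.48 and -0.62 in the A172 control arrays and -0.38, 0.05 and 0.06 in the siLINC00152 arrays, which did not overlap. In U87 it read -1.33, -0.82, 0.02 and -0.58 in the control arrays and -0.26, -0.11, 0.69 and 0.20 in the siLINC00152 arrays, where the groups overlapped and each pair was higher by 0.68 to 1.08. IL11RA rose by 0.52 on the log2 scale in A172 (SE 0.13 with the block, limma adjusted p = 0.153 with it and 1 without) and 0.81 in U87 (SE 0.11 with the block, limma adjusted p = 0.0353 with it and 1 without). With 1 pair at a time left out, IL11RA failed the thresholds in 5 of 7 fits for A172 and in 0 of 7 for U87. Under normexp and quantile normalization its log2 fold changes were 0.28 and 0.43.

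LIFR, the receptor for leukaemia inhibitory factor that pairs with IL6ST, rose in U87 with the block. On A_24_P397386 the U87 control arrays read -1.88, -1.61, -3.08 and -0.23 and the siLINC00152 arrays -1.07, -0.84, -1.16 and 0.45. Each pair was higher, by 0.68 to 1.92, and control replicate 3 was the lowest and not well above background. LIFR rose by 1.05 on the log2 scale (SE 0.20 with the block, limma adjusted p = 0.0784 with it and 1 without). Without U87 control replicate 3 its log2 fold change was 0.59, in the model without a block, and under normexp and quantile normalization it was 0.45. In A172 it was -0.54, with 3 of 3 pairs lower and a limma adjusted p of 0.466 with the block. That A172 value ran from -0.81 to -0.29 without 1 array. With the block it passed in 1 of 7 fits without 1 pair, at a limma adjusted p of 0.0463. The difference between the lines of -1.59 had a limma adjusted p of 0.208 with the block and 1 without it. That difference passed with the block in 1 of 7 fits without 1 pair, at a limma adjusted p of 0.101.

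ADAM17, a protease that sheds IL6R from the cell surface, fell in A172 with the block. Its A_23_P143120 levels were 1.74, 0.76 and 1.51 in the A172 control arrays and 0.12, -0.23 and 0.37 in the siLINC00152 arrays, which did not overlap. ADAM17 fell by 1.25 on the log2 scale (SE 0.17 with the block, limma adjusted p = 0.0201 with it and 0.276 without). Without a block it passed when A172 control replicate 2 was left out, with a limma adjusted p of 0.0957, or U87 control replicate 3, with 0.187. In U87 the log2 fold change was -0.47 (limma adjusted p = 0.197 with the block and 1 without), short of 0.5, and 4 of 4 pairs were lower. ADAM17, like TRIM8, is among the genes that the study listed from these arrays. With the other sheddase, ADAM10, 3 probes were tested in each line, and in both lines all 3 had a log2 fold change below 0. Over all tested probes, 45.7% were below 0 in A172 and 52.6% in U87.

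Of the kinase and adaptor list, limma called 0 of 9 probes in A172 and 0 of 8 in U87, with and without the block. At an unadjusted p under 0.05 there were 0 in either line without the block, and 0 and 1 with it. Of the STAT factor list limma called 0 of 6 in each line, with 0 at an unadjusted p under 0.05 without the block and 2 in each line with it. Over all tested probes in A172 and U87, 0.184% and 0.0502% were called without the block and 3.26% and 4.19% with it. At that p, the shares were 2.28% and 2.31% without the block and 10.7% and 16.9% with it. The median log2 fold change of the STAT list was -0.10 in A172 and 0.20 in U87, the STAT3 probe A_24_P116805 being the lowest in A172 and the highest in U87.

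Of the inhibitor list, 13 probes were tested in A172 and 10 in U87. SOCS2, a suppressor of cytokine signalling, fell in A172 with the block by 0.94 (SE 0.16 with the block, limma adjusted p = 0.0471 with it and 1 without). Its A_23_P128215 levels were -0.79, -1.42 and -1.83 in the A172 control arrays and -1.92, -2.17 and -2.77 in the siLINC00152 arrays, which did not overlap, and it was well above background on no U87 array. SOCS2 failed the thresholds in 2 of 7 fits made without 1 pair, and its log2 fold change with normexp and quantile normalization was -0.27. In U87 limma called 0 of the 10 inhibitor probes, with 0 at an unadjusted p under 0.05 with or without the block. Over all tested U87 probes, 0.0502% were called and 2.31% were at that p without the block, and 4.19% and 16.9% with it. Of TRIM8 and its known partners SOCS1 and PIAS3, the TRIM8 probe alone was called among the 3 tested in each line, in A172 with and without the block and in U87 with the block alone. Over all tested A172 probes, 0.184% were called without the block and 3.26% with it.

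Of the 39 probes of known STAT3 targets, 30 were tested in A172 and 24 in U87. Limma called 0 of them without a block in either line, beside 0.184% of all tested probes in A172 and 0.0502% in U87. In that model 4 in A172 and 0 in U87 were at an unadjusted p under 0.05, beside 2.28% and 2.31% of all tested probes. With the block 5 of 30 passed in A172 (16.7% beside 3.26%), 1 upward and 4 downward with MMP2 among them. In U87 0 of 24 passed with it, beside 4.19% of all tested probes. At an unadjusted p under 0.05 the block gave 9 in A172 and 6 in U87, beside 10.7% and 16.9% of all tested probes. The median log2 fold change of the list was -0.12 in A172 and -0.0014 in U87. This list too was chosen with earlier results of these data known, and IL4R passed on more than 1 probe.

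SAA1, an acute-phase gene, rose the most of the list probes in A172. On A_24_P335092 it read -1.19, 1.39 and -0.20 in the A172 control arrays and 1.87, 2.66 and 2.19 in the siLINC00152 arrays. The controls were widely spread, every siLINC00152 array was above every control, and U87 arrays gave no signal well above background. SAA1 rose by 2.24 on the log2 scale (SE 0.35 with the block, limma adjusted p = 0.034 with it and 0.317 without). Without a block it passed when A172 control replicate 2 was left out (2.93, limma adjusted p = 0.0317) or under normexp and quantile normalization (log2 fold change 1.54), and with the block it did not when A172 replicate 3 was left out (limma adjusted p = 0.255).

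The STAT3 targets with probes that passed downward in A172 with the block were MMP2, IL4R on 2 of its probes, and BCL2L1. The matrix metalloprotease MMP2 (A_33_P3237135) was well above background on 3 of 3 A172 control arrays, at -4.0, -2.74 and -3.12, and on 0 of 3 siLINC00152 arrays. For a group with no array well above background, a fold is given against the mean over its arrays of the lowest log2 level that was well above background on each. By that rule MMP2 was at least 1.21-fold lower. Its limma test rests on siLINC00152 values at background, so it counts among the probes that passed but gives no size for the change. With normexp and quantile normalization its log2 fold change was -0.16. The interleukin-4 receptor gene IL4R fell on A_33_P3349045, from -0.16, -0.22 and -0.05 to -0.76, -0.87 and -0.99, where the groups did not overlap. Its log2 fold change was -0.73 (SE 0.14 with the block, limma adjusted p = 0.0706 with it and 1 without). On IL4R A_23_P129556 it was -0.80 (limma adjusted p = 0.106 with the block and 1 without), but there the groups overlapped and 2 of 3 siLINC00152 arrays were well above background, and on A_33_P3395947 it was -0.13 and not called. The survival gene BCL2L1 read 2.03, 2.05 and 2.12 in the A172 control arrays and 1.52, 1.70 and 1.31 in the siLINC00152 arrays on A_23_P210886. Its log2 fold change was -0.56 (SE 0.13 with the block, limma adjusted p = 0.117 with it and 1 without). With 1 pair at a time left out, MMP2 failed the thresholds in 2 of 7 fits, and both of these IL4R probes and BCL2L1 in 3, each time without an A172 pair. Normexp and quantile normalization gave log2 fold changes of -0.36 for IL4R A_33_P3349045, -0.18 for A_23_P129556 and -0.497 for BCL2L1, all short of 0.5.

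IL4R was the target that differed between the lines with the block. In U87 A_33_P3349045 read -1.48, -0.79, -1.31 and -0.95 in the control arrays and -1.09, -0.75, -1.03 and -0.38 in the siLINC00152 arrays, with 4 of 4 pairs higher and overlapping groups. The difference between the lines was -1.05 (SE 0.19 with the block, limma adjusted p = 0.167 with it and 1 without), and with 1 pair at a time left out it failed the thresholds in 7 of 7 fits.

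Promoter windows of 300 bases, 250 before to 50 after each gene's start, were searched for a known core of STAT binding motifs, TTCNNNGAA, which reads the same on both strands. RefSeq windows on GRCh38.p14 were held for 9 of the 10 members, 15 windows in all, and TTCNNNGAA was in 0 of them, beside 2689 of 35116 windows (7.66%) over all genes. TRIM8 had no window in the table. Of the 9 other list genes with a probe that passed in a line, 5 had a window, and LIFR alone held the motif, in 2 windows. They are shown because LIFR was called in U87 with the block, with TTCNNNGAA in capitals, 5′ to 3′ on the minus strand, the first at chr5:38595356-38595655 and the other at chr5:38557418-38557717.
LIFR upstream window: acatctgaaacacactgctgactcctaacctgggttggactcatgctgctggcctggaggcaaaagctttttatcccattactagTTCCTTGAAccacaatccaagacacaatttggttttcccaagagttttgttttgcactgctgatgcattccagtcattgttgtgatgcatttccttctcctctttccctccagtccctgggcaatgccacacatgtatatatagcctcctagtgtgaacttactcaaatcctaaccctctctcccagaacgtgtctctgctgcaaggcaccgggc
LIFR downstream window: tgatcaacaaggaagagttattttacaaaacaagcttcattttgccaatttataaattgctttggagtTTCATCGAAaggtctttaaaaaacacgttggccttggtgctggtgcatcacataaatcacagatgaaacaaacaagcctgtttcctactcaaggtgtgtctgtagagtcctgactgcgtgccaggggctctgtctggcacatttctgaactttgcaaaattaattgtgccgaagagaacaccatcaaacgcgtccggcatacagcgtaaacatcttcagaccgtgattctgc

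A looser form, TTNNNNNAA, which contains every TTCNNNGAA, was in 10 of the 15 member windows and in 18449 of 35116 windows (52.5%) over all genes. The SOCS3 window at chr17:78360876-78361175, minus strand, is shown because SOCS3 is the feedback gene of the pathway, with its 2 overlapping matches to TTNNNNNAA in capitals.
SOCS3 window: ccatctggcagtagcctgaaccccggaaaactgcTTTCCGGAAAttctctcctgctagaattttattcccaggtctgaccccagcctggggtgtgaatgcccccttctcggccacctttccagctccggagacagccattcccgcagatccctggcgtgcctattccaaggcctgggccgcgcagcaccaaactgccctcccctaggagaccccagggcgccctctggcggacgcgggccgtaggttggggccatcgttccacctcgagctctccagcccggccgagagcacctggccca
A match is a description of the letters in a window and shows no binding, and no factor was measured on these sequences.

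The probes whose levels over the 14 arrays were most like those of TRIM8 and STAT3 were sought among 10875 named probes well above background on every array, after the mean of each line was subtracted. For TRIM8 A_23_P46844 they were TCF3 (Pearson r = 0.955), ADGRG1 (0.938) and NHSL3 (0.933). With group means subtracted, which removes the knockdown effect, these values were 0.659, 0.682 and 0.764. For TCF3 the log2 fold change was -1.47 in A172 (SE 0.26, limma adjusted p = 0.0575, and 0.00579 with the block) and -0.55 in U87 (SE 0.23, limma adjusted p = 1, and 0.0832 with the block). ADGRG1 had -1.58 and -0.36, with limma adjusted p of 0.0838 and 1, or 0.00614 and 0.223 with the block. NHSL3 had -0.94 and -0.14, with an A172 limma adjusted p of 0.455, or 0.0126 with the block, and 0.467 in U87 with the block. The likeness to TRIM8 was therefore made up in part by the steep drop in A172 that the probes share.

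For STAT3 A_24_P116805 the most alike were IL10RB (Pearson r = 0.969), TERF2 (0.934) and PGM1 (0.919). With group means subtracted their values were 0.958, 0.964 and 0.912, so the likeness lay mostly in differences between arrays of the same group. IL10RB, a receptor chain for interleukin-10 and related cytokines, was lower in A172, at a log2 fold change of -0.45 (SE 0.28), and higher in U87, at 0.45 (SE 0.24), both with a limma adjusted p of 1. The arrays share slides and pairs, and these correlations carry no test.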

How the data were processed

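RNA of 14 samples was measured on one-colour Agilent arrays annotated to hg19, and the labels call the replicates independent biological experiments. The deposited scanner files, made with Feature Extraction 11.5.1.1, give each spot's background-subtracted processed signal as an intensity, with no normalization between arrays. The deposited series table holds log2 values that the authors normalized between arrays: its 14 columns share 1 distribution with a median of 4.3802, differ by at most 0.000942 at any rank, and rank each array's spots as the processed signal does (Spearman 1). The present values are the log2 processed signal minus the log2 75th percentile over the 58717 non-control spots of the array. Spots marked by the scanner software as uneven or deviating were left out, and spots were averaged per probe. A table of GRCh38.p14 RefSeq accessions, used for names and promoter windows, named 29033 of the 50599 probes.

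Testing in a line required a value in every group and, in 1 group or more, 3 or more arrays where a share of at least 0.5 of the probe's spots was marked well above background. Group means for the 4 groups were fitted with limma 3.58.1 in R 4.3.3, with Benjamini-Hochberg adjustment within each line, tested on simulated data. The spread of a probe was estimated over the arrays of both lines together, so a standard error in either line also reflects the other line. The model with the replicate block adds a term for each replicate number within a line. As a check of pairing, probe deviations from the group mean were correlated between control and siLINC00152 arrays. Same-number arrays had r from 0.675 to 0.794 in A172 and 0.373 to 0.864 in U87, different-number arrays -0.701 to -0.0434 and -0.772 to 0.411. Every same-number r was above 0.1, so the numbers were taken to pair the samples; in A172 a pair is also a slide.

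The members and lists were chosen with earlier results of these data known. Every member probe is named. Of the lists, probes called in a line with or without the block are named, up to 12 a line, and for likeness the 3 probes with the highest Pearson r. Alternatives were the replicate block, normexp background correction (offset 50) with quantile normalization, quantile normalization alone, the deposited log2 values, no filter on dim probes, keeping the marked spots, fitting each line by itself, a false discovery rate of 0.05, and leaving out each array or pair.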

Additional observations from a re-analysis of the deposited data

Results flagged for a closer look

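In groups of 4 arrays, a value was picked out when its gap to the nearest other array, as a share of the group's range, was above Dixon's critical value. Chance alone does this in about 1 in 20 groups, and 6 of the 46 U87 groups checked had such a value. Of these, 3 were low values on U87 control replicate 3, the dimmest array: JAK1 A_33_P3784283 at -2.46, SOCS3 A_23_P207058 at 0.35 and STAT3 A_24_P116805 at 0.019. The other 3 were high values among the U87 siLINC00152 arrays. STAT3 A_23_P100795 read 1.13 on replicate 3, and IL6R A_21_P0000171 read -1.30 and IL6ST A_33_P3233834 read 1.73 on replicate 4. The part of array brightness in these values was not tested.

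The fold change differed between the lines by the limma test of the difference, with the replicate block alone, for TRIM8 A_23_P46844 (-1.50, adjusted p = 0.0969), for IL4R A_33_P3349045 (-1.05, adjusted p = 0.167) and for CD44 A_33_P3294509 (-1.25, adjusted p = 0.0861). Each is the A172 minus the U87 log2 fold change. Without the block the adjusted p was 1 for all 3. On the other CD44 probe, A_21_P0000152, mean log2 levels of control and siLINC00152 arrays were closer, at -0.33 and -0.58 in A172 and -0.25 and -0.057 in U87.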

How the results depend on the processing

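The numbers of called probes depended on the processing; where no reason is given, the cause was not tested. With the replicate block 924 probes were called in A172 in place of 52, 918 in U87 in place of 11, and 89 for the difference between the lines in place of 2. With normexp and quantile normalization the counts were 41 in U87 and, by limma, 0 for the difference. Quantile normalization alone and the deposited log2 values each gave 1 for the difference. Without the filter on dim probes 34 were called in A172, and with A172 fitted by itself, on fewer arrays, 14. At a false discovery rate of 0.05, a stricter threshold, 27, 7 and 1 were called in A172, in U87 and for the difference.

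Leaving out 1 array gave 21 to 90 called probes in A172, 7 to 17 in U87 and 1 to 2 for the difference. The 90 and the 17 came without U87 control replicate 3. The A172 count moved by more than 1.5 times without A172 control replicate 1 (32) or 3 (21) or A172 siLINC00152 replicate 2 (28) or 3 (27). The U87 count did so without U87 control replicate 1 or 2 or U87 siLINC00152 replicate 1 or 4 (7 each). The count of 2 for the difference became 1 without any of 11 of the 14 arrays, the exceptions being A172 control replicate 3, A172 siLINC00152 replicate 2 and U87 control replicate 3. With the replicate block, leaving out a pair gave 226 to 1411 in A172, 275 to 755 in U87 and 2 to 101 for the difference, the last an alternative added after seeing the data. The 1411 and the 101 came without U87 replicate 3. Without any other pair the 89 for the difference dropped to between 2 and 9.

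The alternatives were followed for 70 fold changes of the target, member and named list probes, and among these no direction of a called probe reversed. TRIM8 was called in A172 in every alternative and every fit that left out an array or a pair. Of the 70, 56 kept their side of the thresholds with the replicate block and 14 newly passed, among them MMP2 in A172, with its siLINC00152 arrays at background. Leaving out an array kept 938 of 980 values on their side of 0 and of the thresholds, 3 newly passed, and 39 uncalled values crossed 0. With the block, leaving out a pair kept 440 of 490, while 39 lost a call, 5 newly passed and 6 uncalled values crossed 0. Normexp and quantile normalization, without a block, gave smaller fold changes for the list probes called with the block, and all but TRIM8, ADAM17 and SAA1 in A172 were short of 0.5. That setting adds an offset of 50 intensity units. The 75th percentiles of the processed signal were 33 to 69 units in U87 and 131 to 284 in A172. The part of the offset in the smaller fold changes was not tested. Dim signal over background, lowest on U87 control replicate 3, limits what can be tested for IL6R, JAK2 and OSMR A_21_P0000073.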
